A study of Homo sapiens with 6 samples.

Results

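HLTF and the genes that work beside it in the tolerance of replication stress were examined in spheroids of SW480 and SW620, colorectal cancer lines grown from a primary tumour and from a lymph node metastasis respectively. The genes were chosen by name, as HLTF, SHPRH, RAD18, RAD5L, UBE2V2, POLH, REV1, REV3L and ZRANB3, and HLTF led the choice because of its large difference between the lines in these same arrays. Of these 9 symbols, 3 had a named feature in the probe annotation used here: HLTF with 2 features, RAD18 with 1 and UBE2V2 with 1. The other 6 symbols were not analysed here. The 3 genes are set against 14884 measured genes. Each line was kept as floating spheres without serum and with added growth factors, a culture meant to enrich tumour-initiating cells, and 3 arrays were hybridised per line. No treatment or genetic change separates the groups, and each is a single line. The submitters call the 3 arrays of a line technical replicates, so every standard deviation, standard error and p-value below measures the spread between such arrays and not between separate cultures.

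When a replication fork meets a damaged template, cells can mark the sliding clamp PCNA with ubiquitin. RAD18, a RING ubiquitin ligase, places a single ubiquitin with its E2 partner, which calls in translesion polymerases that copy across the lesion. HLTF, an SNF2-family ATPase and ubiquitin ligase related to yeast Rad5, can extend this mark to a chain with the E2 pair UBE2N and UBE2V2, and can also reverse stalled forks. HLTF is known in colorectal cancer as a gene whose promoter is often methylated and silent. No methylation was measured here.

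The sequence upstream of HLTF is shown because HLTF is the gene whose level separates the lines, with that of RAD18, whose level hardly does, for comparison. Each is the 250 bases before the RefSeq transcript start in GRCh38.p14, 5′ to 3′ on the strand of the gene, with every CpG dinucleotide in capitals. HLTF lies on the minus strand of chromosome 3 and its stretch is chr3:149086534-149086783. RAD18 lies on the minus strand of chromosome 3 and its stretch is chr3:8963473-8963722.
HLTF: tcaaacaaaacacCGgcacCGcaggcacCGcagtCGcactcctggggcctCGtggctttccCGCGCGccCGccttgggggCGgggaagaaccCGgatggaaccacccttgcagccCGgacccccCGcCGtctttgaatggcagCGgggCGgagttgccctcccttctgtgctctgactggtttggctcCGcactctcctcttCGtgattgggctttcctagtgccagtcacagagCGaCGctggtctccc
RAD18: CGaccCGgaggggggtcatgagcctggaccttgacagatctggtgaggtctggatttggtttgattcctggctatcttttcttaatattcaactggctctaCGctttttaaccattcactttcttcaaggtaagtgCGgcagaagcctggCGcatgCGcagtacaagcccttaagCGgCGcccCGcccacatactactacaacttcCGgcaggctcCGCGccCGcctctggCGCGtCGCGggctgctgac
The HLTF stretch holds 20 CpG dinucleotides, more than 67.6% of 35116 RefSeq promoter stretches of the same length. The RAD18 stretch holds 17, more than 61.0% of them, and the median is 11. The Sp1 box GGGCGG, searched on both strands, occurs 2 times in the HLTF stretch and 1 time in that of RAD18, and 42.6% of all stretches hold it. CCAAT, searched in the same way, occurs 1 time for HLTF and 0 times for RAD18, against 32.0% of all stretches with at least 1 match. TATAAA was found in neither, and 10.7% of all stretches hold it. These matches describe the letters only.

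On its brighter feature HLTF was near the bottom of the scale in SW480 and well above the middle in SW620. Its log2 expression was 3.05, 3.24 and 3.02 in SW480 replicates 1, 2 and 3, and 8.49, 8.60 and 8.57 in those of SW620. All SW620 arrays were high and all SW480 arrays low, with 5.25 log2 units between the highest SW480 array and the lowest SW620 array. The means were 3.10 ± 0.118 (SD, n = 3) in SW480 and 8.55 ± 0.0590 (SD, n = 3) in SW620, a difference of 5.45 with a standard error of 0.0890, or 43.7-fold. Only 5.78% of all features were dimmer than this one in SW480, whereas 95.0% were dimmer in SW620. None of the other 14883 genes had a larger positive difference. This difference is the value for which the genes were chosen, so it is given as a description with no test. The SW480 level lies below the 25th percentile feature (3.53), where a fold depends on the array's floor.

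The second feature of HLTF did not separate the lines. Its log2 expression was 3.58, 3.66 and 3.65 in SW480 and 3.64, 3.83 and 3.63 in SW620. The lines overlapped, and all 6 values lay below the median feature (4.06). The means were 3.63 ± 0.0460 (SD, n = 3) and 3.70 ± 0.112 (SD, n = 3), a difference of 0.0683 with a standard error of 0.0878. In SW620 the features thus differed within each array by 4.77 to 4.94 log2 units, and in SW480 by -0.64 to -0.43, the first minus the second. With both features averaged the HLTF difference was 2.76.

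The position of the features in the platform's numbering gives a fact about the second one. The 20 named features nearest in number to the brighter HLTF feature all belong to genes of chromosome 3, and of the 17 whose strand is in the RefSeq promoter table, 17 lie on the minus strand, as HLTF does. The 20 nearest to the dimmer feature also belong to chromosome 3, but of 18 with a known strand, 17 lie on the plus strand and 1 on the minus strand. Which strand the dimmer feature reads is not given in the sources used here, and the part of this in its level was not tested.

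RAD18, the ligase that starts the PCNA mark, was almost level between the lines. Its log2 expression was 7.38, 7.36 and 7.30 in SW480 and 7.41, 7.43 and 7.45 in SW620. All SW620 arrays were above all SW480 arrays, by a gap of only 0.0276. The means were 7.35 ± 0.0441 (SD, n = 3) and 7.43 ± 0.0219 (SD, n = 3), a difference of 0.0847 with a standard error of 0.0794, or 1.06-fold. Only 28.6% of the other genes had a smaller absolute difference. On arrays of bulk RNA, fewer cells with a transcript and less of it per cell cannot be told apart.

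UBE2V2, the catalytically inactive E2 variant that pairs with UBE2N to build ubiquitin chains, was slightly lower in SW620. Its log2 expression was 6.64, 6.77 and 6.76 in SW480 and 6.48, 6.41 and 6.50 in SW620. The lines did not overlap, with a gap of 0.137. The means were 6.72 ± 0.0738 (SD, n = 3) and 6.46 ± 0.0492 (SD, n = 3), a difference of -0.26 with a standard error of 0.0830, and 63.8% of the other genes had a smaller absolute difference. In both lines the features of RAD18 and UBE2V2 were brighter than at least 82.5% of all features. By their brightest features all 3 genes had arrays that did not overlap between the lines, 2 of them higher and 1 lower in SW620. Over all 14884 genes 45.7% did not overlap, 22.0% higher and 23.7% lower. Since the genes were chosen with this contrast known, nothing is read from that count.

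**Figure D1:**
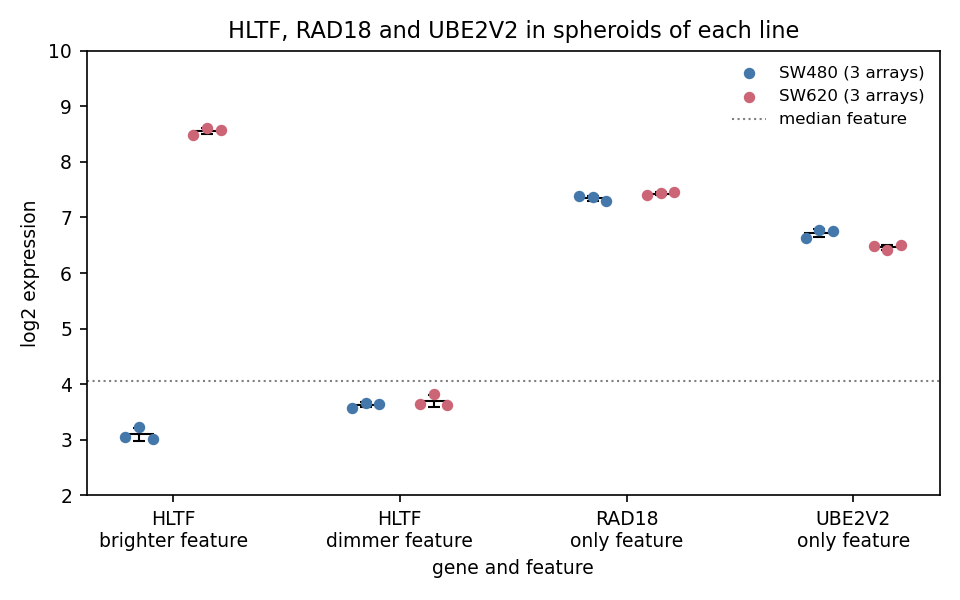
Log2 expression (vertical axis) of each feature of HLTF, RAD18 and UBE2V2 (horizontal axis) on the 3 SW480 and 3 SW620 arrays. Points are arrays, black bars are the mean ± SD, and the dotted line is the median feature (4.06). The brighter HLTF feature goes from about 3.10 to 8.55, while the mean of each of the other 3 features differs by at most 0.26 between the lines.

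Profiles most like that of the brighter HLTF feature were found by the root mean square difference over the 6 arrays, after each gene was centred on its own mean. The nearest was the long non-coding RNA LINC00460, at 0.34 log2 units, with means of 3.63 in SW480 and 8.47 in SW620. The actin-bundling protein LCP1 followed at 0.41, the imprinted gene PEG10 at 0.42, the peptidase MME at 0.48 and the Ras exchange factor RASGRF2 at 0.58. Pearson's r with HLTF over the 6 arrays was at least 0.997 for each. The arrays form 2 groups, so a high r mostly restates that a gene differs between the lines. A further feature of RASGRF2 differed by 1.49 only. None of these 5 genes belongs to the replication-stress lists.

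The genes next to HLTF on chromosome 3 did not share its difference. Of the 10 nearest measured genes on each side, 4 rose in SW620, 4 fell and 12 did not pass limma's moderated test at an adjusted p of 0.05, and their median difference was 0.0652, against 0.0132 over all genes. The share that changed was 40.0%, against 35.6% of all genes and 49.8% of genes brighter than the median feature. Of these 20 neighbours, 12 were dimmer than the median feature in both lines, and of those only SLC9A9-AS1 was called. All the other neighbours except COMMD2 were called. Both genes are named after their values were seen, and SLC9A9-AS1 kept its call in 2 of 6 fits that left out an array. Dim genes are called less often, so the 35.6% is not a like background for these neighbours.

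Immediately before HLTF, GYG1, the glycogenin that primes glycogen, was 6.92, 7.23 and 7.15 in SW480 and 6.08, 6.14 and 6.25 in SW620, and fell 1.92-fold (limma adjusted p = 6.43e-06). The next genes on that side, the carboxypeptidases CPA3 and CPB1, differed by -0.0651 and -0.11 and did not pass. Immediately after HLTF, HPS3, a subunit of a complex for lysosome-related organelles, rose by 0.29 (limma adjusted p = 0.0333). CP, which encodes ceruloplasmin, and TM4SF18 differed by 0.0199 and 0.0740 and did not pass.

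The largest rise in the neighbourhood was that of TM4SF1, a tetraspanin-like surface protein known from many tumours. Its log2 expression was 6.93, 7.01 and 6.68 in SW480 and 9.57, 9.59 and 9.54 in SW620, a 6.47-fold rise (limma difference 2.69, standard error 0.0966, adjusted p = 2.40e-10). PLSCR1, a phospholipid scramblase, rose 1.97-fold, while DIPK2A fell 2.70-fold. The first 3 genes on either side therefore hold 1 rise and 1 fall. Without SW480 replicate 1, SW620 replicate 1 or SW620 replicate 2, 2 neighbours rose in place of 4. HPS3 lost its call in each of these fits, without SW480 replicate 2, and under a repeat quantile normalization or cyclic loess.

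**Figure D2:**
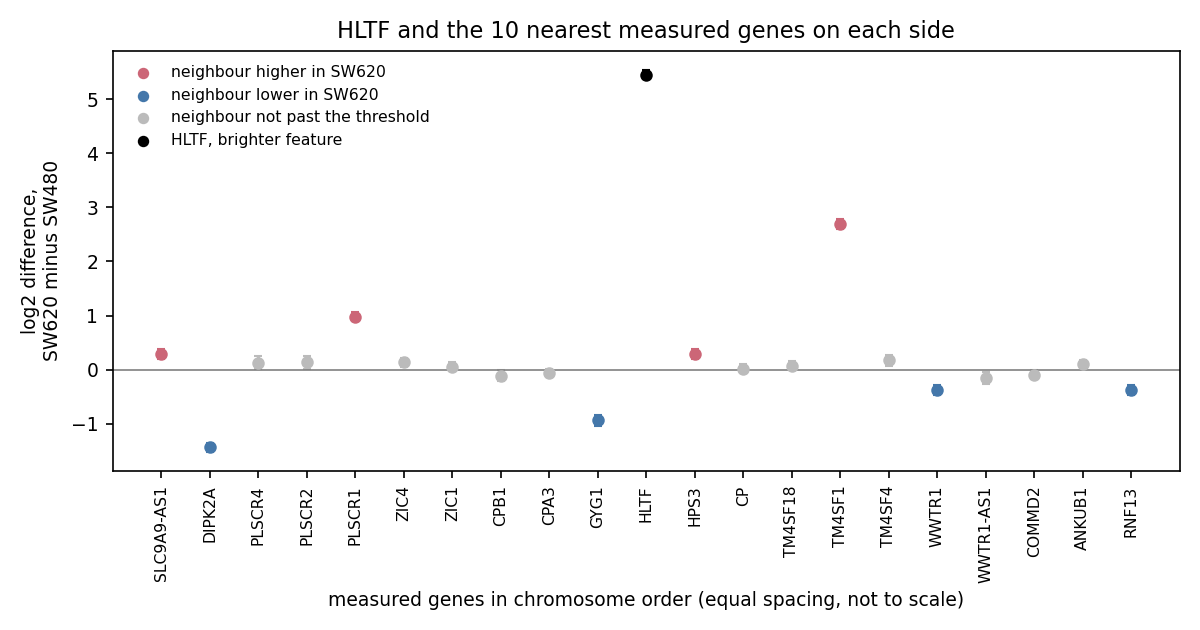
Log2 difference, SW620 minus SW480 (vertical axis), of HLTF and of the 10 nearest measured genes on each side in chromosome order (horizontal axis, equal spacing). Bars are standard errors, which are smaller than most points. HLTF stands at 5.45, TM4SF1 at 2.69 and DIPK2A at -1.43, and 12 neighbours did not pass the test.

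Of 10 neighbours of RAD18, 3 rose and 0 fell in limma's test, a called share of 30.0% that is below the 35.6% of all genes. Those were LMCD1, the RNA LINC00312 and the oxytocin receptor OXTR, and their differences were 1.73, 1.17 and 0.40. OXTR lost its call without SW480 replicate 2 or SW620 replicate 3. At an unadjusted p under 0.05 the count of falls was also 0. Of 10 neighbours of UBE2V2 on chromosome 8, 0 rose and 3 fell in the same test, again 30.0% against 35.6% of all genes, with a median difference of -0.18. At an unadjusted p under 0.05, 1 rose, PCMTD1, named after its values were seen. Its brighter feature differed by 0.21 and its other feature by -0.19. The fallen genes were HGSNAT, a lysosomal enzyme (-0.67), SPIDR, a scaffold of recombination repair (-0.74), and the transcription factor SNAI2 (-0.35), the last without a call when SW480 replicate 2 or SW620 replicate 1 was left out. MCM4, the replicative helicase subunit just before UBE2V2, differed by -0.0538 and did not pass. It is named after its values were seen. Dimmer than the median feature in both lines were 4 of the RAD18 neighbours and 5 of the UBE2V2 neighbours. Dim genes are called less often, and among genes brighter than the median feature 49.8% were called. The 35.6% is thus not a like background for either set.

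The comparison was extended to 7 lists of other genes that mark PCNA, copy past lesions, remodel, protect or cut forks, signal stress or share the SNF2 motor of HLTF. The lists held 135 genes besides those named above, of which 82 were measured. In limma's test 33 rose in SW620, 10 fell and 39 did not pass. The risen genes made up 40.2% of the 82, against 16.0% of all 14884 genes, and the fallen ones 12.2%, against 19.5%. The lists were drawn up with earlier results of these data known, so such shares are description only. Bright genes are called more often. Among genes brighter than the median feature, 40.7% of 81 list genes rose and 12.3% fell, against 22.5% and 27.4% of 9475 genes. In either direction it was 53.1% against 49.8%. The median difference of the 82 was 0.13. Most steps were small: 6 of the 82 were called and changed by at least 2-fold, against 904 of all 14884 genes (6.07%). Among genes brighter than the median feature it was 6 of 81 list genes, against 869 of 9475. When the test asked for more than a 1.2-fold change, 13 rose and 1 fell. Without SW480 replicate 2, 6 fell in place of 10.

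**Figure D3:**
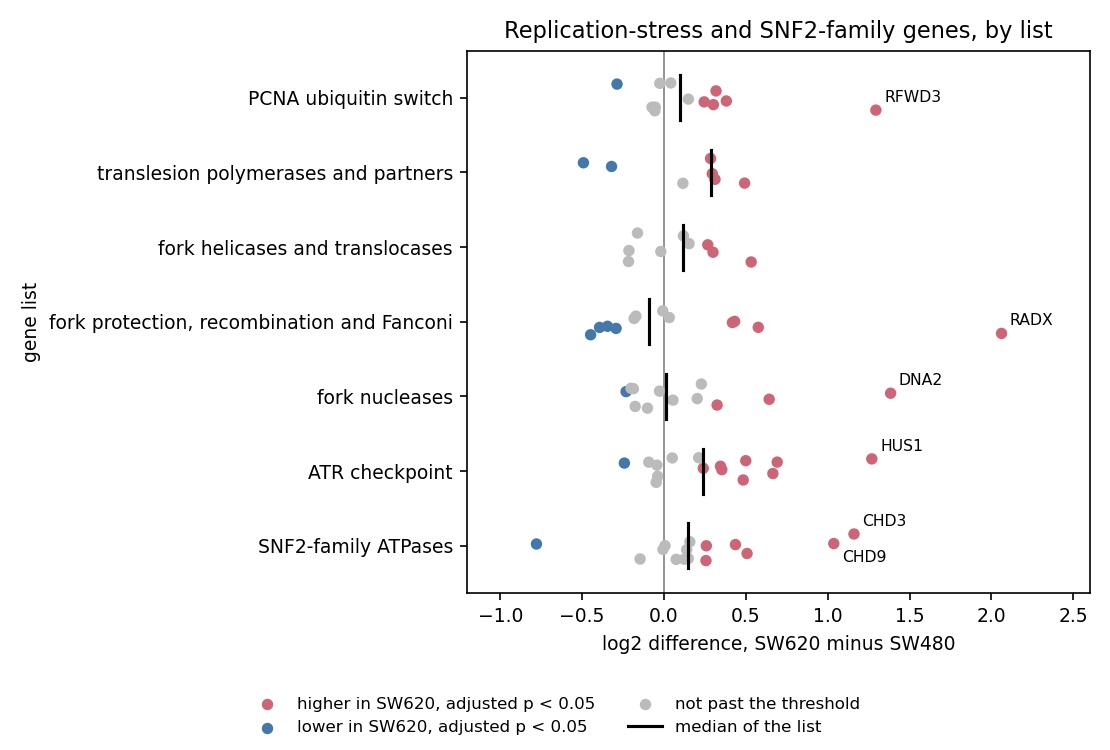
Log2 difference, SW620 minus SW480 (horizontal axis), of the 82 measured genes of 7 lists (vertical axis). Each point is a gene, coloured by limma's call at an adjusted p of 0.05, and black bars are list medians. RADX, DNA2, RFWD3, HUS1, CHD3 and CHD9 changed by at least 2-fold, all toward SW620, and the ATR checkpoint list holds 8 rises and 1 fall.

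In the PCNA ubiquitin switch, 5 of 12 measured genes rose and 1 fell, with a median difference of 0.0952. Together 6 of 12 were called, against 35.6% of all genes and 49.8% of genes brighter than the median feature. The called share was thus close to that of bright genes. RFWD3, a ubiquitin ligase that acts on the single-strand binding protein RPA at stalled forks, was 8.97, 8.94 and 9.02 in SW480 and 10.32, 10.30 and 10.20 in SW620. It rose 2.45-fold (limma difference 1.29, standard error 0.0818, adjusted p = 5.07e-08). The lines were far apart for this gene. CUL4A and DTL, the scaffold and the substrate receptor of a cullin ligase that acts on PCNA-bound proteins, rose by 0.38 and 0.30. The E2 partners of RAD18 went apart. UBE2A rose by 0.32 (adjusted p = 0.0120), and its close relative UBE2B, named here after its values were seen, fell by 0.29 on the log2 scale (adjusted p = 0.0430), with overlapping arrays.

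UBE2N, the active partner of UBE2V2, differed by -0.026 (adjusted p = 0.864) and UBE2V1, a relative of UBE2V2, by -0.0534 (adjusted p = 0.677). USP1 and its cofactor WDR48, which remove ubiquitin from PCNA, differed by -0.0559 and -0.0732 and did not pass. PCNA itself rose by 0.25 (adjusted p = 0.0378). These genes were named after their values were seen. The calls of UBE2A, DTL, UBE2B and PCNA each ended when 1 array was left out, PCNA in 5 of 6 such fits and UBE2B in 4 of 6. PCNA also lost it under a repeat quantile normalization or cyclic loess, and UBE2B with arrays centred on the 75th percentile. The list's rises numbered 3 without SW480 replicate 1 or without SW620 replicate 2.

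Of 7 measured translesion polymerases and partners, 4 rose, 2 fell and 1 did not pass, with a median difference of 0.28. Calls made up 85.7% of these 7, against 35.6% of all genes and 49.8% of genes brighter than the median feature. POLK, a polymerase that bypasses bulky lesions, was 6.25, 6.32 and 6.29 in SW480 and 6.84, 6.74 and 6.75 in SW620, a 1.41-fold rise (limma adjusted p = 0.000313), and its other feature differed by 0.39. POLN rose by 0.31. POLI and SPRTN, a protease that clears proteins crosslinked to DNA, rose by 0.28 and 0.29 and are named after their values were seen. MAD2L2, the accessory subunit of polymerase zeta, was 6.65, 6.68 and 6.50 in SW480 and 6.11, 6.16 and 6.08 in SW620 and fell by 0.49 on the log2 scale (adjusted p = 0.000497). VCP, the segregase that extracts ubiquitinated proteins from chromatin, fell by 0.32. PRIMPOL, which restarts synthesis beyond a lesion, differed by 0.12 (adjusted p = 0.390) and is also named after its values were seen. Without SW480 replicate 3, 2 members rose in place of 4. POLI lost its call in that fit, and SPRTN there and without SW480 replicate 2, SW620 replicate 1 or SW620 replicate 3.

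Among 9 measured fork helicases and translocases, 3 rose, 0 fell in limma's test and 6 did not pass. This called share of 33.3% was below the 35.6% of all genes and the 49.8% of genes brighter than the median feature. At an unadjusted p under 0.05, 1 fell, the topoisomerase TOP3A (-0.22), named after its values were seen. RAD54B, a motor of recombination, was 7.25, 7.46 and 7.24 in SW480 and 7.81, 7.86 and 7.88 in SW620, a 1.45-fold rise. BRIP1, a helicase that unwinds unusual DNA structures, rose by 0.30. RECQL, which restarts reversed forks, rose by 0.27 (adjusted p = 0.0208), a call lost without SW480 replicate 1, SW480 replicate 2 or SW620 replicate 2 and under cyclic loess. Without SW620 replicate 2, 1 member fell.

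The fork protection, recombination and Fanconi list was split, with 4 of 12 measured members higher and 4 lower. Together 66.7% were called, against 35.6% of all genes and 49.8% of genes brighter than the median feature. The median difference was -0.0896 while the mean was 0.14, of opposite sign. RADX, which binds single-stranded DNA at forks, was 5.43, 5.49 and 5.20 in SW480 and 7.41, 7.42 and 7.47 in SW620. It rose 4.17-fold (limma difference 2.06, standard error 0.0923, adjusted p = 1.86e-09), the largest change in the 7 lists apart from HLTF. PALB2, a recombination mediator, rose by 0.58 and BOD1L1, which shields forks from nucleases, by 0.43. RIF1, a regulator of replication timing, fell by 0.45 on the log2 scale. RAD52 rose by 0.42, and RAD51B, BARD1 and XRCC3 fell by 0.39, 0.34 and 0.29 on the log2 scale. All of these were named after their values were seen. XRCC3 lost its call without SW480 replicate 2, SW480 replicate 3 or SW620 replicate 1.

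Of 12 measured fork nucleases, 3 rose and 1 fell, with a median of 0.0137. Here too the called share, 33.3%, was below the 35.6% of all genes and the 49.8% of genes brighter than the median feature. DNA2, a nuclease and helicase that trims reversed forks, was 7.41, 7.17 and 7.36 in SW480 and 8.69, 8.65 and 8.75 in SW620. It rose 2.61-fold (limma difference 1.38, standard error 0.0898, adjusted p = 6.51e-08), with the lines well apart. NBN, a subunit of the break sensor with MRE11 and RAD50, rose 1.56-fold, while MRE11 differed by 0.20 (adjusted p = 0.165) and RAD50 by -0.0273 (adjusted p = 0.838), both named after their values were seen. FEN1, which processes flaps, rose by 0.32 (adjusted p = 0.0253) and the exonuclease EXO1 fell by 0.23 on the log2 scale (adjusted p = 0.0455). FEN1 kept its call in 2 of 6 fits that left out an array and EXO1 in 1 of 6. EXO1 also lost it with arrays centred on the 75th percentile.

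The ATR checkpoint list, which senses single-stranded DNA at stalled forks, had 8 rises and 1 fall among 15 measured genes, and its median difference was 0.24. Its called share was 60.0%, against 35.6% of all genes and 49.8% of genes brighter than the median feature. HUS1, a subunit of the ring-shaped checkpoint clamp, was 7.32, 7.12 and 7.18 in SW480 and 8.44, 8.52 and 8.47 in SW620. It rose 2.41-fold (limma difference 1.27, standard error 0.0854, adjusted p = 9.28e-08). RAD1, another subunit of the clamp, was 7.31, 7.16 and 7.11 in SW480 and 7.97, 7.93 and 7.76 in SW620 and rose 1.61-fold. RAD17, which loads the clamp, rose 1.59-fold (adjusted p = 2.77e-05), and its SW620 arrays lay above all SW480 arrays. RAD9A, the remaining clamp subunit, rose by 0.24 (adjusted p = 0.0318).

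CLSPN, the adaptor that brings CHEK1 to ATR, rose 1.41-fold, and its dimmer feature also differed by 0.50. TIPIN and TIMELESS, which travel with the fork, rose by 0.48 and 0.35, and the effector kinase CHEK1 rose by 0.34. The kinase ATR and its partner ATRIP differed by -0.0477 (adjusted p = 0.718) and 0.0505 (adjusted p = 0.760) and did not pass. TOPBP1, an activator of ATR, fell by 0.24 on the log2 scale (adjusted p = 0.0455). RAD9A, TIPIN, TIMELESS, CHEK1, ATR, ATRIP and TOPBP1 were named after their values were seen. RAD9A and TOPBP1 each kept the call in 1 of 6 fits that left out an array. TOPBP1 also lost it with arrays centred on the 75th percentile, and TIMELESS lost its call without SW480 replicate 2.

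**Figure D4:**
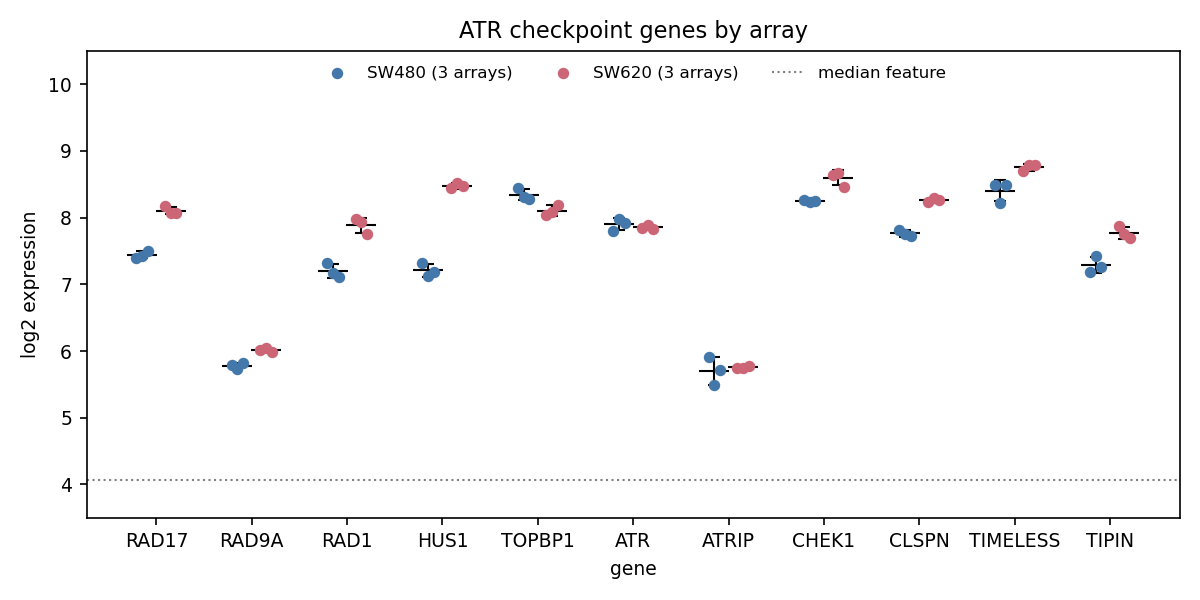
Log2 expression (vertical axis) of 11 ATR checkpoint genes (horizontal axis) on the 3 SW480 and 3 SW620 arrays. Points are arrays, black bars are the mean ± SD and the dotted line is the median feature (4.06). HUS1, RAD1 and RAD17 show the widest separation, ATR and ATRIP overlap, and every SW620 array of TOPBP1 is below its SW480 arrays.

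Among 15 measured relatives of HLTF in the SNF2 family, 6 rose and 1 fell, and the median difference was 0.15. Of these relatives 46.7% were called, against 35.6% of all genes and 49.8% of genes brighter than the median feature. CHD3, an ATPase of the NuRD complex, was 5.93, 5.97 and 5.86 in SW480 and 7.12, 6.94 and 7.18 in SW620 and rose 2.23-fold (limma adjusted p = 3.59e-07). CHD9 rose 2.05-fold and RAD54L2 1.42-fold. CHD6 was 7.61, 7.75 and 7.64 in SW480 and 6.89, 6.85 and 6.93 in SW620 and fell by 0.78 on the log2 scale (adjusted p = 7.09e-06). SRCAP rose by 0.44, and INO80 and CHD8 by 0.26 each, all named after their values were seen. INO80 and CHD8 kept the call in 2 and 1 of the 6 fits that left out an array. The relatives closest to HLTF in function, SHPRH and ZRANB3, were not analysed here.

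The labelled epithelial origin was checked against markers. KRT18, the brightest of the epithelial list and named after its values were seen, averaged 11.6 in SW480 and 11.7 in SW620. Of 9 measured epithelial and intestinal markers, 6 were brighter than the median feature in SW480 and 7 in SW620. KRT20 and CDX1, also named after their values were seen, were below it in both lines, and CEACAM5 in SW480. The list had 4 rises and 1 fall, among them CEACAM5 (2.42) and CDX2 (-1.54). Calls made up 55.6% of it, against 35.6% of all genes and 49.8% of genes brighter than the median feature. None of 3 endothelial markers nor the fibroblast marker DCN was brighter than the median feature in either line, and 0 of these 4 changed in limma's test. At an unadjusted p under 0.05, 1 did, DCN, which differed by 0.18. Of 4 leukocyte markers, CD68 rose by 0.43 and LAPTM5 fell by 0.41 on the log2 scale. Both were above the median feature, CD68 at 5.92 in SW480 and 6.35 in SW620, and LAPTM5 at 6.25 and 5.84. The other leukocyte markers were below it. Array medians lay between 4.04 and 4.07, and Pearson's r over features was 0.988 to 0.992 between arrays of a line and 0.963 to 0.965 between arrays of different lines.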

How the data were processed

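The deposited table holds 1 log2 expression value per feature and array, for which the submitters' processing notes name Partek and RMA. The sources used here give no versions, settings or base of the logarithm, and base 2 was read from the range, 1.99 to 13.9. RMA subtracts background, equalises arrays and summarises probes, and can understate folds of dim genes. Depth has no meaning for arrays, and their number limits the precision.

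Of 53616 features, 16098 carry 1 gene symbol in the probe annotation used here and 37518 none, so a gene without one may still be on the platform. The brightest feature stood for each of 14884 genes, of which 779 have several, with no filter. Names, strands, gene order and promoters came from RefSeq tables (GRCh38.p14). A 2-group model without covariates in limma 3.58.1 (R 4.3.3), with moderated variances and two-sided tests, gave SW620 minus SW480 differences, moderated standard errors and Benjamini-Hochberg adjusted p over all genes, with a threshold of 0.05. The code was checked on simulated arrays of 14884 genes with independent normal noise, where 50 genes each were raised by 0.5, 1, 2 or 3. The model recovered 47 of 50 log2 changes of 0.5 and 50 of 50 of size 1, and 12 of 209 calls were false. In the real arrays 35.6% of genes were called, a far larger share, so these counts give no error rate for the calls above.

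The members and lists were chosen with earlier results of these data known. The text names each member, up to 4 called genes with non-overlapping arrays and the largest difference per list, 3 neighbours of HLTF per side and up to 4 called ones, the 5 genes most like HLTF and up to 2 called genes per marker list. Other names were added after their values were seen. As alternatives, arrays were quantile-normalized again, centred by their median or 75th percentile, or fitted by cyclic loess, beside filters on dim genes, a trended and robust variance, the mean of all features, the replicate number as a block, treat at 1.2-fold and leaving out each array.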

Additional observations from a re-analysis of the deposited data

How the results depend on the processing

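The HLTF difference on its brighter feature (5.45) kept its direction under each setting, from 5.43 to 5.48 under the other scalings and with the replicate number as a block, and from 5.41 to 5.52 when 1 array was left out. It was 2.76 as the mean of both features and 0.0683 on the dimmer one. RAD18 ranged from 0.0599 to 0.11 and UBE2V2 from -0.30 to -0.23. Requiring more than a 1.2-fold change lowered the number of genes called over all genes from 5293 to 2465, the rises in the 7 lists from 33 to 13 and the falls from 10 to 1, since small differences then fail by construction. Leaving out 1 array gave 4590 to 4984 calls, 26 to 29 rises and 6 to 9 falls. Same-numbered arrays of the lines did not deviate together (r from -0.0234 to -0.00889 over genes). No shared effect of the number was seen, which cannot tell whether such arrays were run as pairs. With the replicate number as a block there were 5215 calls, 31 rises and 7 falls. The block ended the calls of 5 list genes, PCNA, UBE2B, EXO1, RAD9A and TOPBP1. Of the 43 called list genes, 28 were called whichever array was left out, and 0 reversed in any setting. No scaling moved the median of all genes by more than 0.0270. No detection calls were used, so values near the floor, such as HLTF in SW480, stand at an unknown height above background.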
